A study of Cuscuta campestris with 8 samples.

Results

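In 4 pools of new shoots of the parasitic plant Cuscuta campestris, 150 genes stood out by how much their transcript level differed from pool to pool. They were chosen from the measured values. Of 45825 genes listed, 32855 passed a filter on low counts, and 8163 of these had a mean of at least 20 CPM (reads per 1000000 reads of the library, scaled by TMM library factors) in each tissue and a log2 ratio of tissue means between 0.1 and 2 in size. In 2140 of the 8163 eligible genes the coefficient of variation (CV, the SD over the mean of 4 pools) was larger in the shoot than in the haustorial region. The 150 shoot-variable genes are those of the 2140 with the largest shoot CV. Levels, ratios and CVs of both tissues thus entered the choice, and they are given as descriptions.

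Dodders such as C. campestris are leafless stem parasites that twine around a host and draw water and nutrients through haustoria, organs that grow from the stem into the host. Their shoots consist of a thin stem with scale leaves, an active tip and lateral buds, and the growing tip and the older stem below it differ in cell division, elongation and the formation of vascular tissue. A pool of shoots averages over all of these and over the plants it was made from.

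The study grew the parasite without a living host. Shoot tips of 3 cm, taken from plants raised on beet (Beta vulgaris), were attached to an artificial host fed with liquid medium that contained an auxin, 1-naphthaleneacetic acid (NAA, 3 mg per litre), and a cytokinin, 6-benzylaminopurine (BA, 1 mg per litre). All plants had 2.5 days of light rich in far-red followed by 12.5 days of full-spectrum light, and both tissues were taken at day 15. The first group consists of 4 pools of haustorial region, cut free of shoots and lateral meristems around healthy holdfasts. The second consists of 4 pools of new shoots, stem and meristems included, from which the 5 mm of stem nearest the haustorial region had been removed. Each pool combined 3 to 4 plants, no genotype or accession of the parasite is named in the labels, and no group without the 2 hormones or on a living host was analysed here. In both tissues a lower level in a pool can stem from fewer cells that express a gene or from less transcript per cell, which bulk RNA cannot tell apart.

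Polyadenylated RNA was sequenced to between 23465088 and 31246017 counts in haustorial pools and between 22334600 and 34247925 counts in shoot pools. The files pair the gene identifiers with no gene names, and 0 of them matched the 45474 genes of a reference table, so the function of these genes is not known here and the tissues were not checked against marker genes. The genes are therefore described by their levels, with identifiers for 4 of them and otherwise by rank in shoot CV.

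The haustorial CV of the 150 genes was between 0.0237 and 0.603, with a median of 0.142. Their shoot CV was between 0.195 and 0.735, with a median of 0.263. The highest haustorial pool exceeded the lowest by a median of 1.37 times, and by at least 2 times in 7 genes. Between shoot pools the same genes spanned a median of 1.77 times, and 46 of them spanned at least 2 times. The other 8013 eligible genes had a median haustorial CV of 0.0904 and a median shoot CV of 0.0571, so for most genes the shoot pools were the more uniform of the 2 sets.

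**Figure D1:**
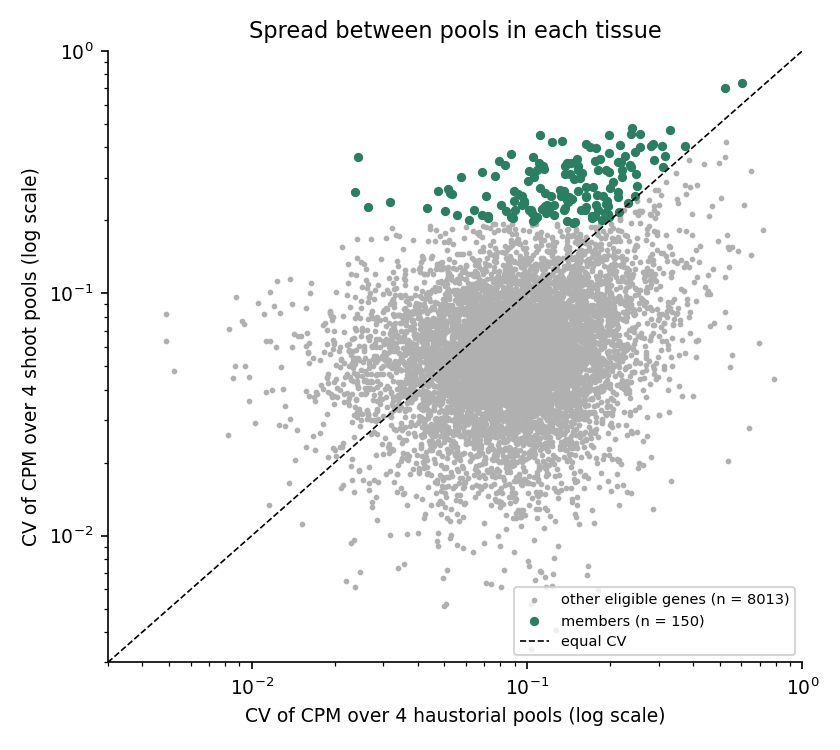
CV of CPM over the 4 haustorial pools (horizontal axis) and over the 4 shoot pools (vertical axis), both on log scales without units, for 8163 eligible genes; green points are the 150 shoot-variable genes, grey points the other 8013, and the dashed line marks equal CV. The cloud of grey points centres below the line, at median CVs of 0.0904 and 0.0571, while the green points start at a shoot CV of 0.195.

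The lower end of the list has no gap. The last 3 genes inside had shoot CVs of 0.198, 0.197 and 0.195, and the first 3 outside had 0.194, 0.193 and 0.193. The name of the list holds within its rule: of 191 eligible genes with a shoot CV as large as that of the last member, 41 were left out because their haustorial CV was at least as large. Variable genes below 20 CPM in either tissue, or with a tissue ratio outside the window, were not considered.

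The CV that counting reads alone would give in the shoot, 1 over the square root of the mean count, was between 0.00298 and 0.0410 for the 150 genes. As a share of the shoot CV it had a median of 9.60% in the 150 genes and 47.8% in the other eligible genes. Counting noise can therefore blur an order of pools more in the other eligible genes, which limits comparisons of pool order between the sets. The listed genes had a median mean level of 70.0 CPM over haustorial pools and 45.8 CPM over shoot pools, against 44.7 CPM and 42.8 CPM in the other eligible genes. At least 100 CPM in each tissue was reached by 26 of the 150 (17.3%) and by 805 of the other 8013 (10%).

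Most of the 150 genes followed 1 shared order of the shoot pools. In 117 of them (78.0%) shoot pools 1 and 2 both lay above pools 3 and 4, and in 11 (7.33%) pools 3 and 4 both lay above pools 1 and 2. Of the other eligible genes, 29.9% had the first order and 17.6% the second. The counts of all genes paired the shoot pools in the same way: the chi-square per degree of freedom was 5.93 between pools 1 and 2 and 5.42 between pools 3 and 4, against 13.6, 10.5, 9.84 and 9.02 for the pairs 1 and 3, 1 and 4, 2 and 3, and 2 and 4. The 150 genes were not taken out of these counts, so the chi-square is no separate support for the order. Whether a batch lies behind this pairing was not tested, since the labels name none. Shoot pool 1 was highest in 66 of the 150 genes and pool 2 in 65, while pool 3 was lowest in 87 and pool 4 in 45. Within the list the order was not confined to the top ranks. It held for 34 of the genes ranked 1 to 50, 45 of those ranked 51 to 100 and 38 of those ranked 101 to 150.

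For each gene the widest of the 3 gaps between its 4 sorted log2 values tells whether 1 pool stands apart or the pools split 2 against 2. Over the haustorial pools no shape dominated: pool 4 alone was low in 32 of the 150 genes, pool 2 alone was high in 26, and 7 genes had pools 1 and 2 high. Over the shoot pools the widest gap separated pools 1 and 2 from lower pools 3 and 4 in 84 genes (56.0%), against 11.5% of the other eligible genes. Pool 1 alone was high in 21 genes, pool 3 alone was low in 12, pool 2 alone was high in 11 and pool 1 alone was low in 8. The remaining 14 genes had 6 other shapes, of which pools 3 and 4 high was the most frequent with 5 genes.

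**Figure D2:**
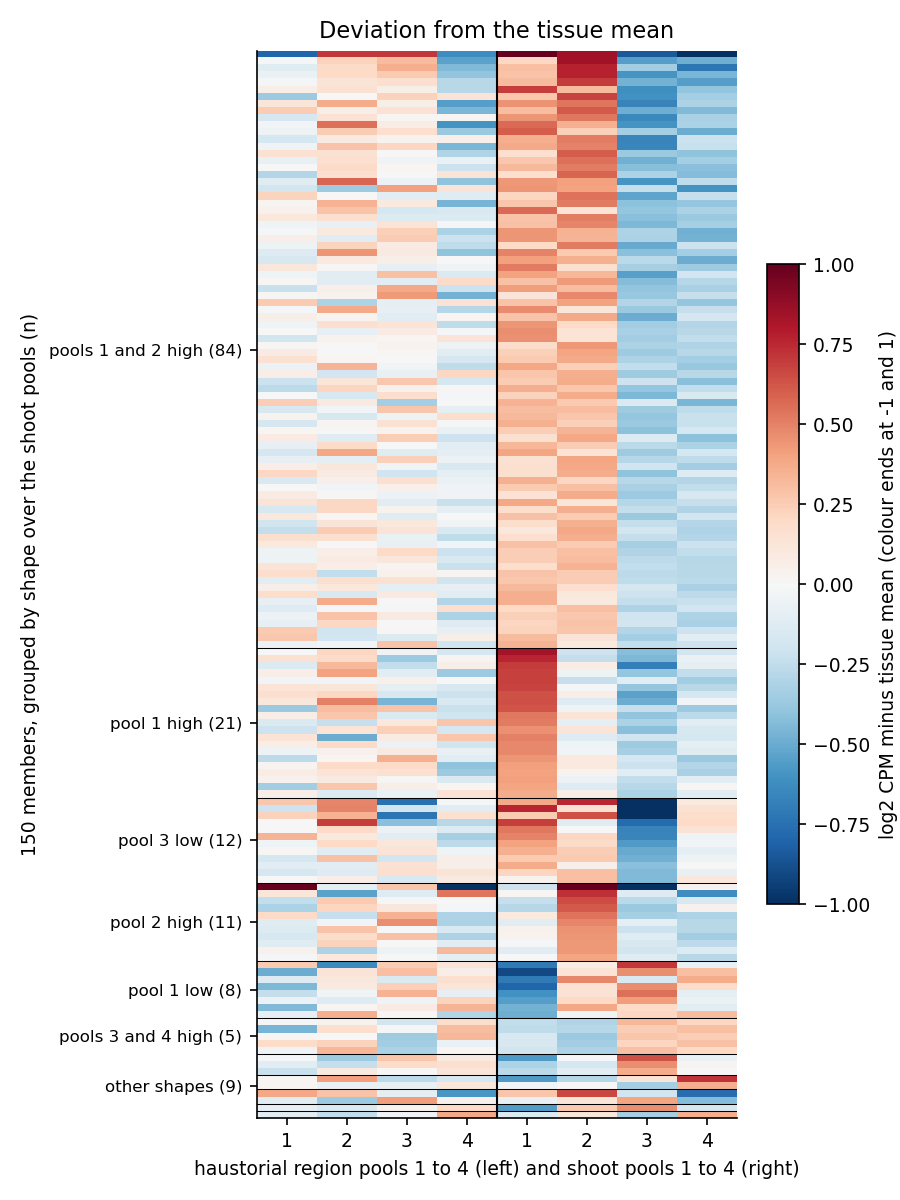
Deviation of each of the 150 shoot-variable genes (rows) from its tissue mean in the 4 haustorial pools (left) and the 4 shoot pools (right), as log2 CPM, with red above and blue below the mean; rows are grouped by shape over the shoot pools with the number of genes in brackets. The 84 genes of the top block are red in shoot pools 1 and 2 and blue in 3 and 4, and their haustorial side is paler, with a median haustorial CV of 0.128 and a median shoot CV of 0.260.

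**Figure D3:**
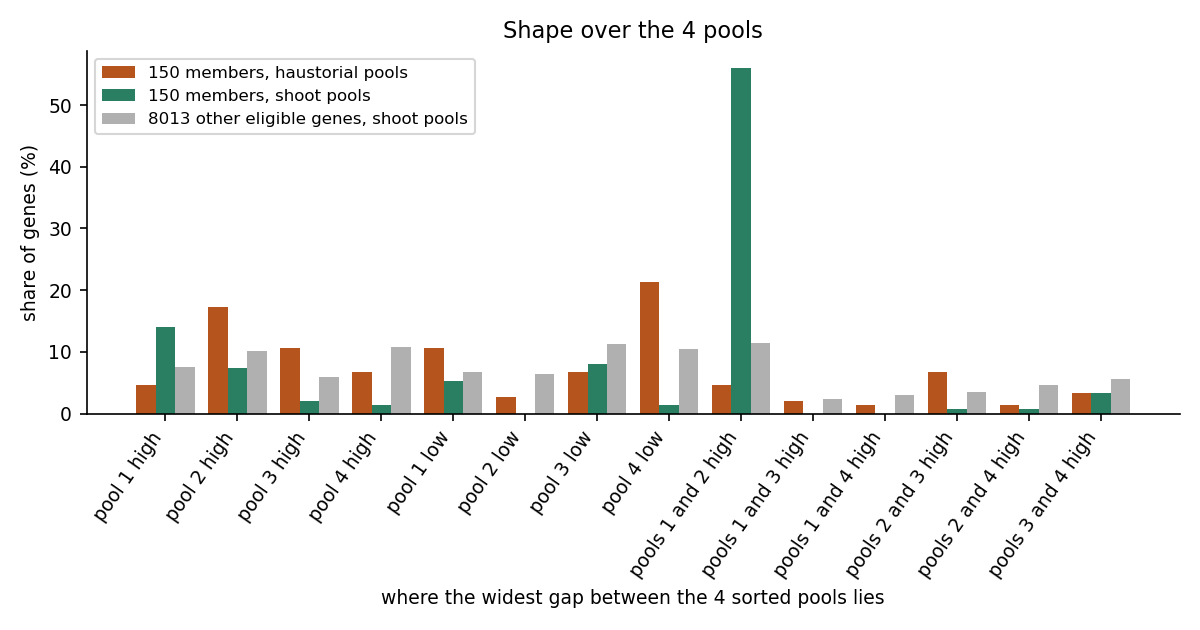
Share of genes (percent) by where the widest gap between the 4 sorted pools lies, for the 150 genes over the haustorial pools (brown), the same genes over the shoot pools (green) and the 8013 other eligible genes over the shoot pools (grey). The bar for pools 1 and 2 high reaches 4.67% for the 150 genes over the haustorial pools, 56.0% for the same genes over the shoot pools and 11.5% for the other genes.

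The gene with the largest shoot CV, Cc020185, had 126, 56.5, 73.0 and 25.1 CPM in haustorial pools 1 to 4 and 22.3, 64.3, 11.6 and 26.6 CPM in shoot pools 1 to 4. Shoot pool 2 was high and pool 3 low, and the 2 tissues overlapped. It was also the least uniform of the 150 genes in the haustorial region, with a haustorial CV of 0.603 and a shoot CV of 0.735. Its mean was 70.3 ± 42.4 CPM over haustorial and 31.2 ± 22.9 CPM over shoot pools (SD, n = 4 each), a log2 fold change (haustorial region over shoot) of 1.18 ± 0.65 (SE) that did not pass the test (quasi-likelihood F test of edgeR, adjusted p = 0.152). Without shoot pool 2 the fold change was 1.80 and passed (edgeR adjusted p = 0.0371).

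Cc045610, ranked 3, measured 47.1, 55.8, 59.0 and 32.8 CPM in the haustorial pools and 28.5, 44.2, 16.8 and 17.6 CPM in the shoot pools. Shoot pools 1 and 2 were the higher ones, and pool 2 reached into the haustorial range. The means were 48.6 ± 11.7 CPM over haustorial and 26.8 ± 12.8 CPM over shoot pools (SD, n = 4 each), and the log2 fold change was 0.86 ± 0.35 (SE, adjusted p = 0.0641 in edgeR). The difference passed the test without shoot pool 2, at a log2 fold change of 1.21 (edgeR adjusted p = 0.00399), without haustorial pool 4, at 1.03 (edgeR adjusted p = 0.0429), and with DESeq2, at 0.88 (adjusted p = 0.0374).

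Cc007652, ranked 2, had the largest shoot CV among genes with a lower haustorial mean. It stood at 45.7, 129, 129 and 51.4 CPM in haustorial pools 1 to 4 and at 267, 216, 67.6 and 54.7 CPM in shoot pools 1 to 4. Both tissues split 2 against 2, but between different numbers: haustorial pools 2 and 3 were high, and shoot pools 1 and 2. The means of 88.9 ± 46.7 CPM over haustorial and 151 ± 106 CPM over shoot pools (SD, n = 4 each) gave -0.77 ± 0.64 as log2 fold change (SE, adjusted p = 0.331 in edgeR). It ranged from -1.05 without shoot pool 4 to -0.34 without shoot pool 1, neither of which passed the test.

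Cc004303, ranked 5, was at 138, 171, 193 and 110 CPM in the haustorial pools and at 206, 284, 131 and 101 CPM in the shoot pools. Its haustorial values lay within the range of its shoot values. The means were 153 ± 37 CPM over haustorial and 180 ± 82 CPM over shoot pools (SD, n = 4 each), and the log2 fold change was -0.24 ± 0.34 (SE, adjusted p = 0.567 in edgeR). Without shoot pool 2 the sign turned, to 0.07 (edgeR adjusted p = 0.84).

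**Figure D4:**
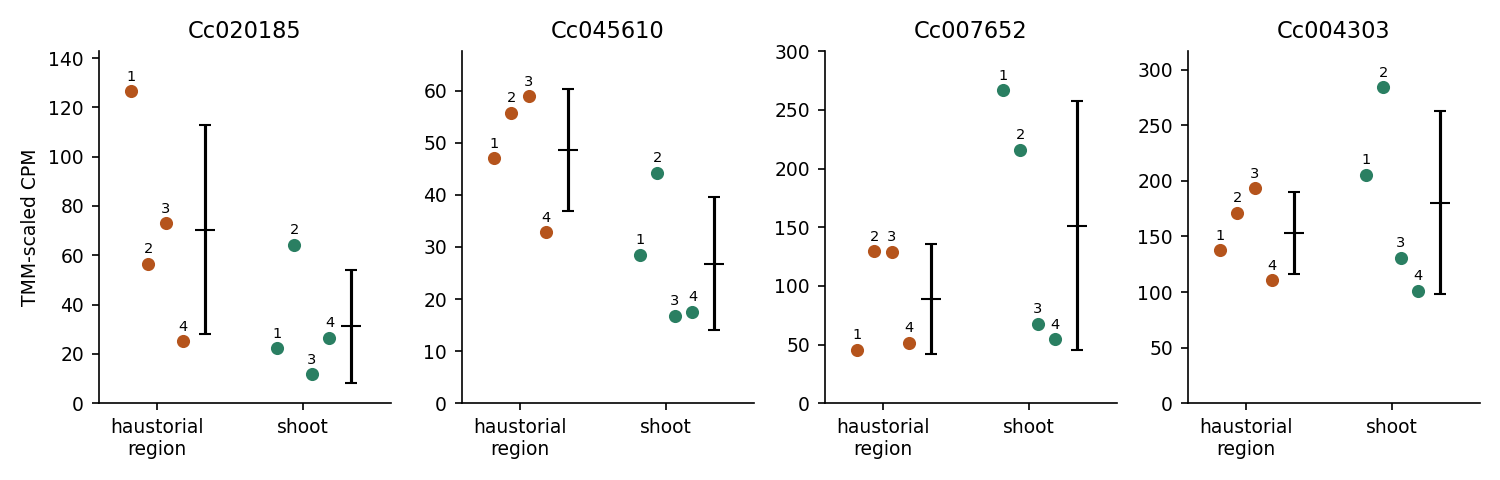
TMM-scaled CPM (vertical axes, from 0) of the 4 named genes in haustorial pools 1 to 4 (brown) and shoot pools 1 to 4 (green), with the pool number above each point and the mean and SD of 4 pools beside them. Shoot pools 1 and 2 are the 2 highest shoot pools in Cc045610, Cc007652 and Cc004303, and in Cc020185 shoot pool 2 stands apart at 64.3 CPM.

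The pool order also held for the most abundant genes of the list. Among the 150, 7 had a mean of at least 1000 CPM in a tissue; all 7 were higher in the haustorial region and had shoot pools 1 and 2 above 3 and 4. The most abundant of them, ranked 10, measured 12276, 13031, 12174 and 9681 CPM in the haustorial pools and 5638, 4348, 2275 and 2651 CPM in the shoot pools. The haustorial CV was 0.124 and the shoot CV 0.419, the shoot values formed a higher and a lower pair, and the tissues did not overlap (log2 fold change 1.66 ± 0.26 SE, edgeR adjusted p = 0.000126).

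The genes ranked 22 and 30 had nearly parallel values. The first was at 2237, 2776, 2531 and 2549 CPM in the haustorial pools and at 881, 934, 416 and 520 CPM in the shoot pools. The second was at 1768, 2120, 2046 and 2066 CPM in the haustorial pools and at 622, 690, 305 and 415 CPM in the shoot pools. In both, haustorial pool 1 was the lowest haustorial pool and shoot pool 3 the lowest shoot pool, and the haustorial CVs of 0.0877 and 0.0788 were far under the shoot CVs of 0.375 and 0.352. The annotation is not known here, so it cannot be said whether the 2 are related copies that share reads.

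Some genes of the list were very uniform in the haustorial region. A haustorial CV under 0.1 was found in 35 of the 150. The lowest belonged to the gene ranked 77, which had 33.98, 33.7, 34.5 and 32.6 CPM in the haustorial pools and 30.3, 36.0, 21.4 and 21.6 CPM in the shoot pools. The gene ranked 25 had 31.1, 31.1, 32.7 and 31.7 CPM in the haustorial pools and 56.1, 29.7, 32.4 and 27.3 CPM in the shoot pools. In the first, shoot pools 1, 3 and 4 lay below all haustorial pools. In the second, only shoot pool 1 left the haustorial range by a wide margin.

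Smaller groups had another shape than pools 1 and 2 high, though many of their genes kept the common order. In the 21 genes with pool 1 alone high, the median deviation from the shoot mean was 0.52 (log2) in pool 1, -0.03 in pool 2, -0.33 in pool 3 and -0.17 in pool 4. The most variable of them, ranked 7, had 45.3, 52.5, 44.2 and 40.3 CPM in the haustorial pools and 43.0, 20.9, 17.9 and 21.1 CPM in the shoot pools. Shoot pool 1 alone was at the haustorial level, and the tissue difference passed the test (log2 fold change 0.82 ± 0.28 SE, edgeR adjusted p = 0.0307). Without shoot pool 1 the fold change was 1.19 (edgeR adjusted p = 8.71e-07), while the call was lost without haustorial pool 1, 2 or 3, without shoot pool 2, 3 or 4, with library totals as scaling and without a filter (edgeR adjusted p of 0.0528 to 0.0752).

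Among the 12 genes with pool 3 alone low, the gene ranked 4 had 197, 229, 97.4 and 162 CPM in the haustorial pools and 132, 171, 43.1 and 109 CPM in the shoot pools. The gene ranked 11 had 116, 125, 59.3 and 109 CPM in the haustorial pools and 138, 179, 54.6 and 130 CPM in the shoot pools. In both, the pool with number 3 was the lowest of each tissue, and shoot pools 1 and 2 still lay above shoot pools 3 and 4. Over the whole list, haustorial pool 3 was lowest in 16 of the 87 genes lowest in shoot pool 3 (18.4%), near its share of 16.7% in all 150 genes. Haustorial pool 4 was lowest in 24 of the 45 genes lowest in shoot pool 4 (53.3%), against 42% in all 150. For pool 1 the count was 5 of 13 (38.5%), against 22.7% in all 150, and for pool 2 it was 0 of 5, against 18.7%. Genes highest in shoot pools 1 to 4 were highest in the haustorial pool of that number in 9 of 66, 24 of 65, 6 of 13 and 3 of 6. These shares were 13.6%, 36.9%, 46.2% and 50%, against 15.3%, 42%, 28.7% and 14% in all 150. No label ties a number to shared plants or a shared day.

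A further set had shoot pool 1 low. Shoot pool 1 was the lowest in 13 genes, and in 9 of these pool 3 was the highest. The gene ranked 18 had 92.3, 49.4, 92.1 and 83.8 CPM in the haustorial pools and 116, 200, 309 and 180 CPM in the shoot pools. The gene ranked 49 had 45.4, 52.6, 68.3 and 50.7 CPM in the haustorial pools and 98.5, 165, 219 and 140 CPM in the shoot pools. In both, every shoot pool lay above every haustorial pool, pool 1 by the least, and both were called lower in the haustorial region, with log2 fold changes of -1.34 ± 0.33 (SE, edgeR adjusted p = 0.00746) for the first and -1.52 ± 0.24 (SE, edgeR adjusted p = 0.000415) for the second.

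When the rule was applied again without 1 shoot pool at a time, with the filter and scaling of all 8 libraries kept, the 150 genes so chosen shared 102, 108, 109 and 123 genes with the list for pools 1, 2, 3 and 4 left out. In the left-out pool they differed from the mean of the other 3 pools by a median of 0.27, 0.23, 0.41 and 0.35 (absolute log2), against 0.07, 0.07, 0.07 and 0.08 for the other eligible genes. That mean comes from the pools whose spread chose the genes, so a part of this difference follows from the choice, and nothing is read from its size or direction.

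Leaving out a shoot pool changed the spread of some genes far more than that of the list. The median shoot CV of the 150 genes was 0.256, 0.281, 0.246 and 0.269 with pools 1, 2, 3 and 4 left out. The CV of 36, 24, 30 and 12 genes was then below the 0.195 of the last member, and 59 of the 150 genes had 1 shoot pool apart. Without pool 1 the shoot CV of the gene ranked 25 was 0.0853, against 0.365 with all pools, and that of the gene ranked 76 was 0.0247, against 0.262. Among the named genes, Cc020185 had a shoot CV of 0.382 without pool 2.

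The comparison of the tissues asks which genes differ between the region that carries the haustoria and the new shoots. Of the 150 genes, 110 (73.3%) had the higher mean in the haustorial region and 40 the lower one. The higher mean was in the haustorial region for 55.6% of the other eligible genes. Among the 1990 other genes whose shoot CV exceeded their haustorial CV it was 68.6%, near the share of the list. The test called 102 of the 150 (68.0%; adjusted p under 0.05 in edgeR), against 65.2% of all genes tested and 77.9% of the 8163 eligible genes. Higher in the haustorial region were 82 (54.7%), against 31.2% of all genes tested, and lower were 20 (13.3%), against 34%. The values of the tissues did not overlap in 81 genes (54.0%), against 60.4% of all genes tested and 72.1% of the eligible ones. Because the rule used the tissue ratio and the spread that enters the test, nothing is read from these shares. The median log2 fold change was 0.66 over the 150 genes and 0.15 over the other eligible genes, and the median SE was 0.18 and 0.08.

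The 110 genes with the higher haustorial mean had a median log2 fold change of 0.89, and the 82 genes called higher above were among them. The 40 with the lower haustorial mean had a median of -0.49, and the 20 genes called lower above were among them. The common pool order was seen in 93 of the 110 (84.5%) and in 24 of the 40 (60%). The reverse order, pools 3 and 4 above pools 1 and 2, was seen in 3 of the 110 and 8 of the 40. Across haustorial pools 1 to 4 the median deviation from the tissue mean (log2) was -0.02, 0.11, 0.02 and -0.10 in the 110 genes and -0.02, 0.05, 0.07 and 0.01 in the 40. Across shoot pools 1 to 4 it was 0.29, 0.30, -0.34 and -0.25 in the 110 genes and 0.28, 0.14, -0.26 and -0.20 in the 40.

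**Figure D5:**
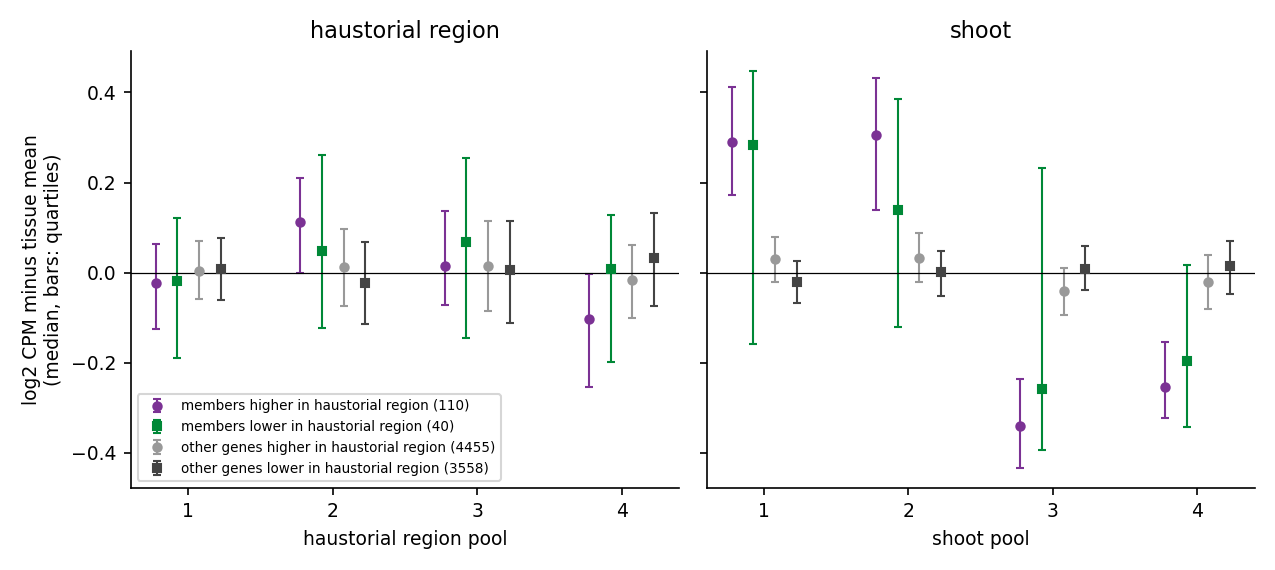
Median deviation from the tissue mean (log2 CPM; bars give the quartiles over genes) in the 4 haustorial pools (left) and the 4 shoot pools (right), for the listed genes with the higher (110) and lower (40) haustorial mean and for the other eligible genes of each direction (4455 and 3558). The 110 listed genes reach medians of 0.29 and 0.30 in shoot pools 1 and 2 and -0.34 and -0.25 in pools 3 and 4, while the shoot medians of the other eligible genes lie between -0.04 and 0.03. A larger size in the listed genes is built into their choice by shoot CV.

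Of the other eligible genes, the 4455 with the higher haustorial mean leaned the same way, with medians of 0.03, 0.03, -0.04 and -0.02 in shoot pools 1 to 4. The 3558 with the lower haustorial mean did not, with -0.02, 0.00, 0.01 and 0.01. The listed genes were chosen by their shoot CV, so nothing is read from the larger size of their deviations. The 356 genes that were 4- to 16-fold higher in the haustorial region, with at least 20 CPM there, summed to 69447 to 87707 CPM in the haustorial pools and to 12126, 12702, 9210 and 10094 CPM in shoot pools 1 to 4, so they too were higher in shoot pools 1 and 2. The 24 genes with haustorial means of at least 100 CPM that exceeded the shoot mean 32-fold or more summed to 6757 to 10423 CPM in the haustorial pools and to 37.6, 44.2, 28.8 and 41.0 CPM in shoot pools 1 to 4. For these, pool 4 was not below pool 1. The 44 genes with shoot means of at least 100 CPM that exceeded the haustorial mean 32-fold or more summed to 99.8 to 187 CPM in the haustorial pools and to 11132, 11911, 12251 and 12516 CPM in shoot pools 1 to 4, lower in pools 1 and 2. Total counts did not follow the pool order, at 34247925, 24711744, 28004532 and 22334600 in shoot pools 1 to 4. Other properties of the libraries did separate shoot pools 1 and 2 from 3 and 4. The TMM factors were 1.057, 1.049, 1.088 and 1.079 in shoot pools 1 to 4. The 100 most abundant genes held 10.9%, 10.5%, 9.65% and 9.82% of the counts. Abundant listed genes were not taken out of these shares, so the shares are no separate support for the pool order. The part of these transcripts and library properties in the pool order was not tested.

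Together the 150 genes summed to 40857, 44987, 41807 and 36039 CPM in haustorial pools 1 to 4 and to 24507, 23598, 15138 and 16341 CPM in shoot pools 1 to 4. The sum averaged 40923 ± 3704 CPM over haustorial and 19896 ± 4839 CPM over shoot pools (SD, n = 4 each). Without the most abundant gene it averaged 29132 ± 2326 CPM over haustorial and 16168 ± 3359 CPM over shoot pools, and shoot pools 1 and 2 stayed above 3 and 4.

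Identifiers run in numerical order, and closeness in that order was not part of the rule. None of the 150 genes (0) had another listed gene as its direct neighbour, 2 had one within 5 identifiers and 10 (6.67%) within 10. Of the other eligible genes, 0.886% had a listed gene as direct neighbour, 3.79% within 5 and 7.38% within 10. The closest pair, 3 identifiers apart, consisted of the genes ranked 60 and 61, with 53.3, 41.5, 29.5 and 29.1 CPM and 77.3, 58.7, 40.9 and 44.7 CPM in shoot pools 1 to 4.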

How the data were processed

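Each of the 8 pools, grouped by title, has 1 deposited file of whole-number counts per gene, left unscaled by the authors. The submitters' processing notes list STAR 2.5.2b. How reads were counted, on which strand, build and annotation, and with which filter is not given in the sources used here, so reads of overlapping or near-identical genes may be split or dropped. Counts were analysed in R 4.3.3 with edgeR 4.0.16: filterByExpr at its defaults (which kept at least 99.9% of the counts of each library), TMM factors, a robust quasi-likelihood fit and F test with tissue as the only term, and Benjamini-Hochberg adjustment over 32855 genes at 0.05. CPM and CVs use TMM-scaled library sizes, log2 values a prior count of 2, and a fold change's SE is its size over the square root of F. All fold changes put the haustorial region over the shoot.

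The rule named by identifier the 2 genes of largest shoot CV in each direction of the tissue ratio. The members and the rules were chosen with earlier results of these data known; the sets of haustorial-enriched genes were added after the values were seen. No set test was run. Between pools of the same tissue the chi-square of the counts per degree of freedom was 5.42 to 29.8, well above sampling noise. Each pool was counted as a sample, though the chi-square does not show that the pools were independent. The labels do not say whether pools came from separate cultures, so p-values set the tissue difference only against the spread between these pools. At these depths 3 counts correspond to 0.0829 to 0.135 CPM. The scripts were tested on simulated counts. DESeq2 1.42.0, other scalings and filters, a replicate block and leaving out each library were tried as alternatives.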

Additional observations from a re-analysis of the deposited data

Results flagged for a closer look

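In 8 of the 300 sets of 4 pools (150 genes in 2 tissues), 1 pool lay so far from the other 3 that its gap to the nearest, as a share of the whole range, passed Dixon's critical value for 4 samples. Chance flags about 1 in 20 such sets, so 8 of 300 is no excess, and the choice of genes by shoot CV affects the shoot sets. In the haustorial region, pool 2 was high in the gene ranked 6 (145 CPM, others 88.7 to 94.7, ratio 0.894), in the gene ranked 37 (40.7 CPM, others 34.4 to 35.3, ratio 0.859) and in the gene ranked 102 (46.2 CPM, others 31.5 to 33.1, ratio 0.893). Haustorial pool 3 was high in the gene ranked 103 (96.4 CPM, others 76.2 to 78.4, ratio 0.89). In the shoot, pool 1 was high in the gene ranked 7 (43.0 CPM, others 17.9 to 21.1, ratio 0.873) and in the gene ranked 76 (42.6 CPM, others 26.0 to 27.3, ratio 0.921). Shoot pool 2 was high in the gene ranked 35 (48.9 CPM, others 25.9 to 27.98, ratio 0.908) and in the gene ranked 121 (811 CPM, others 528 to 557, ratio 0.897).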

How the results depend on the processing

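The count of 102 called genes among the 150 was 97 to 112 under the other scalings, without a filter and with DESeq2, and 91 to 106 with each library left out; 86 of the 102 were called with every library left out in turn, and no called gene turned its direction. Over all genes the count was 21412, and 19980 to 21282 with each library left out. With a replicate block 114 of the 150 and 20659 of all genes were called, and Cc045610 passed the test (adjusted p = 0.0123); the deviations of 0 of 8 libraries were most alike to those of the library that shared their number, so no pairing is known. Scaling by library totals alone moved the log2 fold changes of all genes by a median of -0.19, and the 150 genes then had 73 calls higher and 26 lower in the haustorial region, in place of 82 and 20. The sign of Cc004303 turned without shoot pool 2; its log2 fold change was -0.43 to 0.0694 over the left-out libraries. The rule found 92 of the 150 genes at a minimum of 10 CPM and 62 at 50 CPM, since the minimum sets which genes compete. It found 147 with RLE scaling, 126 with library totals, 146 with the SD of log2 CPM, 111 without the window on the ratio, and 101 to 138 with each library left out and filter and scaling recomputed. The median CV of the 150 genes over the scalings and left-out libraries was 0.124 to 0.147 for haustorial and 0.246 to 0.281 for shoot pools. The shape with shoot pools 1 and 2 high was found in 75 to 84 genes; it needs 4 shoot pools and was not computed with a shoot pool left out. The median deviation of left-out pools was 0.29 to 0.30 (log2) under the 3 scalings. Depth limits little for the 150 genes, since each had a mean of at least 20 CPM in each tissue. In the other eligible genes the CV from counting alone was a median of 47.8% of the shoot CV. A CV from 4 pools per tissue has little precision.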
